A study of Arabidopsis thaliana with 4 samples.

Results

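Replicate 1 of this LEC1 ChIP-seq series held 727 strong peaks that no called peak of replicate 2 overlapped. They are the replicate 1 peaks on the 5 nuclear chromosomes with a pileup of at least 60, the number of extended ChIP fragments stacked over the summit, and with not a single base in common with a replicate 2 peak. They make up 727 of the 2961 peaks of that pileup (24.6%), out of 13894 nuclear replicate 1 peaks in all. The other 2234 peaks of pileup 60 and over overlapped a replicate 2 peak and serve here as the comparison. The members were chosen by their replicate 1 pileup and by the replicate 2 peak calls, so pileup, fold, length and background of the peaks are given as descriptions, and nothing was tested on them.

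Chromatin came from developing seeds of Arabidopsis thaliana lec1-4 mutants carrying pLEC1:LEC1-FLAG, which the labels put at the seed mature stage. An anti-FLAG antibody precipitated the tagged protein in 2 ChIP libraries, called biological replicates in the design, and each had its input library of total chromatin from plants of that same genotype. The LEC1 promoter drives the transgene, every library carried it, and the samples held no FLAG precipitation from untagged plants. Replicate 1 was called from 4454133 tags of ChIP over 7578894 of input, and the 3361 nuclear peaks of replicate 2 from 4493099 over 9646586. Pileups were lower over the replicate 2 peak list as a whole: 50 of its nuclear peaks reached 60, against 2961 of replicate 1. Its median pileup was 25, against 34 in replicate 1, and these medians are over different sets of peaks. The highest was 293 in replicate 2 and 289 in replicate 1. Fragments were extended less in replicate 2, so equal tag density gives a lower pileup there. With 1 added, tags spread evenly over the genome would give 7.96 in replicate 1 and 6.59 in replicate 2. Pileups were not corrected for this.

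LEC1 is a seed-specific form of the B subunit of NF-Y, a factor of 3 different subunits. The B and C subunits pair through their histone folds, and an A subunit joins them and recognises the CCAAT element in DNA. In seeds LEC1 is a master regulator of embryo development and of maturation, when reserves are laid down and the embryo comes to withstand drying, and it also acts with bZIP and B3 factors.

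The share of peaks without a replicate 2 partner fell steadily with pileup up to 150 and left a few very strong members. Without a partner were 383 of 748 peaks of pileup 60 to under 70 (51.2%, 95% Wilson interval 47.6 to 54.8). The share was 36.5% from 70, 22.8% from 80, 9.83% from 90 and 5.38% from 100 to under 120. From 120 to under 150 it was 0 of 339, where the Wilson interval ends at 1.12% and 3 counts, the limit that a count of 0 allows, would be 0.885%. At 150 and over, 3 of 192 peaks (1.56%, 0.533 to 4.49) had none, so members reappeared above a stretch that held none. Intervals cover counting error only, and since pileup entered the rule, this course is a description. Over all nuclear replicate 1 peaks, 77.1% lacked a partner.

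**Figure D1:**
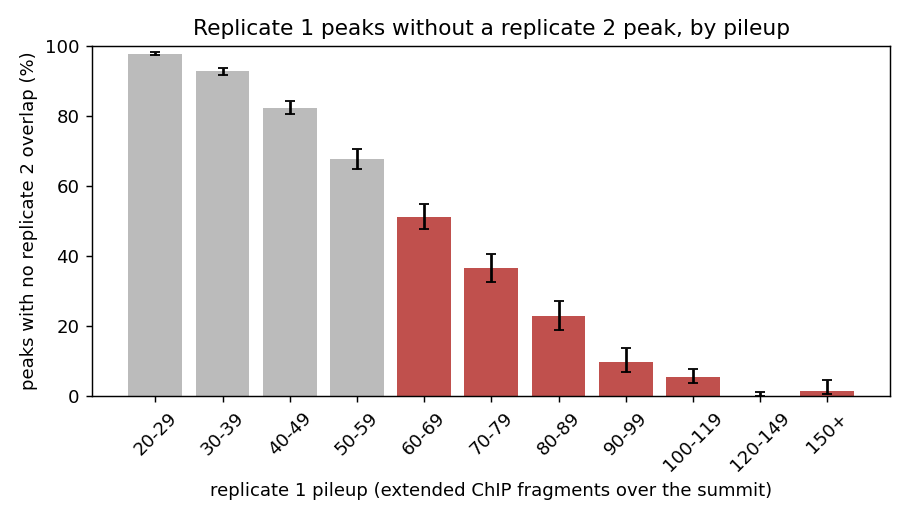
Bars give the percentage of nuclear replicate 1 peaks with no base of overlap with a replicate 2 peak (vertical axis) in steps of replicate 1 pileup (horizontal axis), with 95% Wilson intervals; red bars are steps within the rule and grey bars lie below it. The share is 51.2% from 60 to under 70 and 0 of 339 from 120 to under 150, and the last bar holds 3 of 192 peaks.

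The threshold cut through a dense part of the distribution. Just inside, 59 members had a pileup of exactly 60 and 48 had 61. Just outside, 54 peaks without overlap had 59 and 57 had 58. Members at 60 included one inside MYB13 (AT1G06180), a MYB transcription factor gene, at 7.40-fold, and one at MYA1 (AT1G17580), a myosin gene, at 4.78-fold. At 59, and so outside, lay peaks at SHY2 (AT1G04240), an Aux/IAA repressor of auxin responses, at 5.46-fold and inside ERD9 (AT1G10370) at 7.07-fold.

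The 3 strongest members were inside NF-YA1, inside NF-YA3 and on the pseudogene AT1G27285. NF-YA1 (AT5G12840) and NF-YA3 (AT1G72830) encode A subunits, the DNA-contacting partners of the LEC1 dimer. The fold, given by the authors for each summit, is the pileup over the local background that the peak caller took from input, with 1 added to both.

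At NF-YA1 the peak ran over 2104 bp (TAIR10 chr5:4051002-4053105), the longest of all 727 members, and lay wholly inside the gene, covering 70.6% of its annotated span. Its 4 summits, from low to high coordinate, had pileups of 141, 103, 78 and 202 fragments. The highest, at position 4052831, stood at 22.6-fold (95% Poisson interval of the pileup, 175 to 232) over a background of 9.0. Replicate 2 had a peak in the same gene only 501 bp further on (chr5:4053607-4053991), with pileups of 25 and 28 and folds of 2.64 and 3.89. That replicate 2 peak overlapped a separate and weaker replicate 1 peak with a pileup of 89 and 10.1-fold. In replicate 1 the weaker site was thus the one with a counterpart.

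The NF-YA3 peak had the same form. It covered 1646 bp (chr1:27405577-27407222), all inside the gene and 53.5% of its span, with 3 summits of 157, 96 and 137 fragments and folds of 18.2, 7.97 and 14.9. The nearest replicate 2 peak was 3141 bp away, with a pileup of 29 and 3.05-fold, where replicate 1 had 109 fragments and 13.0-fold. On AT1G27285 a single summit reached 152 fragments (129 to 178) and 15.1-fold in a peak of 803 bp (chr1:9478383-9479185), and replicate 2 had its nearest peak 3778 bp away.

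HD1 (AT4G38130), the histone deacetylase gene also known as HDA19, came next by fold. Its peak of 1757 bp (chr4:17897491-17899247) was the second longest member, with summits of 80, 117 and 106 fragments inside the gene and at most 13.3-fold, and covered 54.4% of the gene's span. Another member of 520 bp, with 74 fragments and 7.49-fold, lay in the same gene, and the nearest replicate 2 peak was 21090 bp from it. Exon structure was not used here, so whether the long peaks over NF-YA1, NF-YA3 and HD1 follow exons, and so whether all of their fragments are chromatin of these loci, was not tested. The other 6 of the 10 members of highest fold were close together, at 12.4-fold to 12.5-fold. One was in the intergenic sequence nearest to MP (AT1G19850), the auxin response factor gene MONOPTEROS that acts in embryo patterning, with 102 fragments and 12.5-fold in a peak of 405 bp. The remaining 5 lay inside AT2G28790, AT5G24130 and AT2G32150, nearest to AT1G73210, and at an end of AT5G28040, with pileups from 106 to 108.

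**Figure D2:**
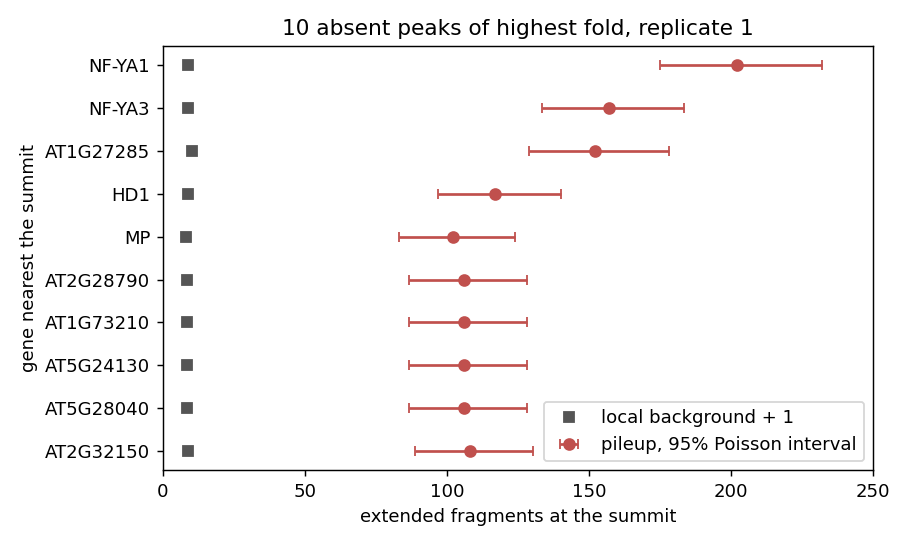
Circles give the pileup of the highest summit with its 95% Poisson interval, and squares the local background plus 1, both in extended fragments (horizontal axis), for the 10 members of highest fold, named by the gene nearest the summit (vertical axis). NF-YA1 reaches 202 and NF-YA3 157, the others 102 to 152, all over backgrounds from 8.24 to 10.1.

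Length beyond 1500 bp was uncommon on both sides. It was found in 5 of 727 members and in 27 of 2234 overlapping peaks. All 5 long members had the summit inside a protein-coding gene, against 15 of the 27 long overlapping peaks. Besides the 3 above they were at AT5G54300, a peak of 1643 bp with 4 summits that covered 90.4% of that gene, and at AT1G21670, with 1546 bp and 3 summits. Length over 1000 bp was found in 30 members (4.13%) and 194 overlapping peaks (8.68%). Of these, 21 members and 101 overlapping peaks had the summit inside a protein-coding gene. Peaks with 3 or more summits were 2.89% of members and 3.04% of overlapping peaks.

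The members were somewhat shorter than the comparison peaks as a whole, and less so within bands of pileup. Median length was 521 bp in members (middle 50%, 419 to 655) and 602 bp in overlapping peaks (473 to 778). Pileup differed as well, with medians of 69 and 93. From 60 to under 80, where 579 members and 706 overlapping peaks fell, median length was 510 bp in members and 505 bp in overlapping peaks. In that band it was 534 bp in members and 560 bp in overlapping peaks with the summit inside a gene, and 460 bp in members and 482 bp in overlapping peaks outside genes. Median pileup there was 66 in members and 69 in overlapping peaks. From 80 to under 100 it was 564 bp in 121 members and 598.5 bp in 578 overlapping peaks, and from 100 upwards 641 bp in 27 members and 692.5 bp in 950 overlapping peaks.

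Local background hardly set them apart either. It is given here with the added 1. The lowest value possible in replicate 1, that of tags spread evenly over the genome, was 7.96, and 4.81% of members and 7.16% of overlapping peaks sat there. The median was 9.23 in members (8.64 to 10.4) and 9.04 in overlapping peaks (8.48 to 10.01). Within the bands of pileup it was 9.23 in members and 8.91 in overlapping peaks from 60, 9.68 and 9.13 from 80, and 9.24 and 9.14 from 100, so members were higher in each band by less than 1 fragment. A background over 12 was found at 60 members (8.25%) and at 178 overlapping peaks (7.97%).

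**Figure D3:**
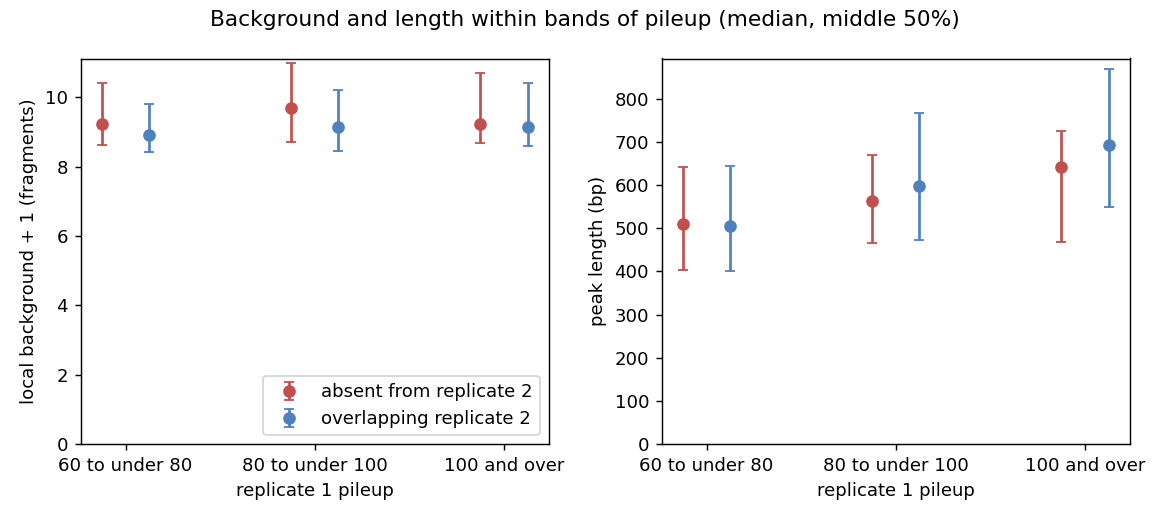
Medians (points) and middle 50% (bars) of the local background plus 1, in fragments (left), and of peak length in bp (right), within bands of replicate 1 pileup, for peaks absent from replicate 2 (red) and overlapping it (blue). Background medians lie between 8.91 and 9.68 throughout, and lengths at pileup 60 to under 80 are 510 bp in absent and 505 bp in overlapping peaks.

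A background above 20 was found at 2 of 727 members, at LEC1 itself and at CSLD5. It was found at 7 of 2234 overlapping peaks, where the highest value was 190.8, so it was not particular to members. The LEC1 member (chr1:7727770-7728659) lay wholly inside LEC1 (AT1G21970), had 89 fragments over a background of 38.8, and so had the lowest fold of all members, 2.32. A neighbouring replicate 1 peak, at chr1:7729440-7729884, had 207 fragments and 5.15-fold and overlapped a replicate 2 peak with 67 fragments at its highest summit. Background at these summits of the neighbouring peak was 40.4 in replicate 1 and 35.5 in replicate 2, against medians over all nuclear peaks of 8.91 in replicate 1 and 7.52 in replicate 2. The plants carry LEC1 sequence in the transgene as well as at the native gene, and reads of these cannot be told apart. At CSLD5 (AT1G02730), a cellulose synthase-like gene, 90 fragments stood over a background of 20.4, at 4.46-fold. The next highest backgrounds among members were 15.7 at AT1G04360 and AT3G62120 and 15.1 at SUO (AT3G48050).

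Where the members lay relative to genes was not part of the rule, and here they differed from the comparison. Summits inside a protein-coding gene, anywhere between its annotated ends, made up 396 of 727 members (54.5%, 50.8 to 58.1) and 875 of 2234 overlapping peaks (39.2%, 37.2 to 41.2). The share inside was higher in members in every band of pileup. It was 52.5% of members and 34.6% of overlapping peaks from 60 to under 80, 61.2% and 42.04% from 80 to under 100, and 66.7% and 40.8% from 100 upwards. By chromosome it was higher in members on 1, 3, 4 and 5, by 14.7 to 24.1 percentage points. Chromosome 2 went the other way, with 37 of 90 members (41.1%) and 144 of 321 overlapping peaks (44.9%). Among peaks just below the threshold, with pileups of 50 to under 60, the share was 49.8% of 697 without a partner and 34.3% of 332 with one. Peaks of 1 library are not replicates, so these shares have no test beyond their intervals, and this measure was chosen after the data were seen.

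Most of the difference lay close to the gene ends. Up to 200 bp into the gene lay 29.7% of member summits (26.5 to 33.1) and 22.6% of overlapping ones (20.9 to 24.4). From there to 500 bp inside it was 15.3% of members (12.8 to 18.1) and 9.62% of overlapping peaks (8.47 to 10.9). On the outer side the order turned: up to 200 bp outside lay 20.6% of members and 24.2% of overlapping peaks, and over 1000 bp outside 9.90% of members (7.94 to 12.3) and 15.7% of overlapping peaks (14.3 to 17.3). The gene table has no strand, so starts and ends of genes were not told apart.

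**Figure D4:**
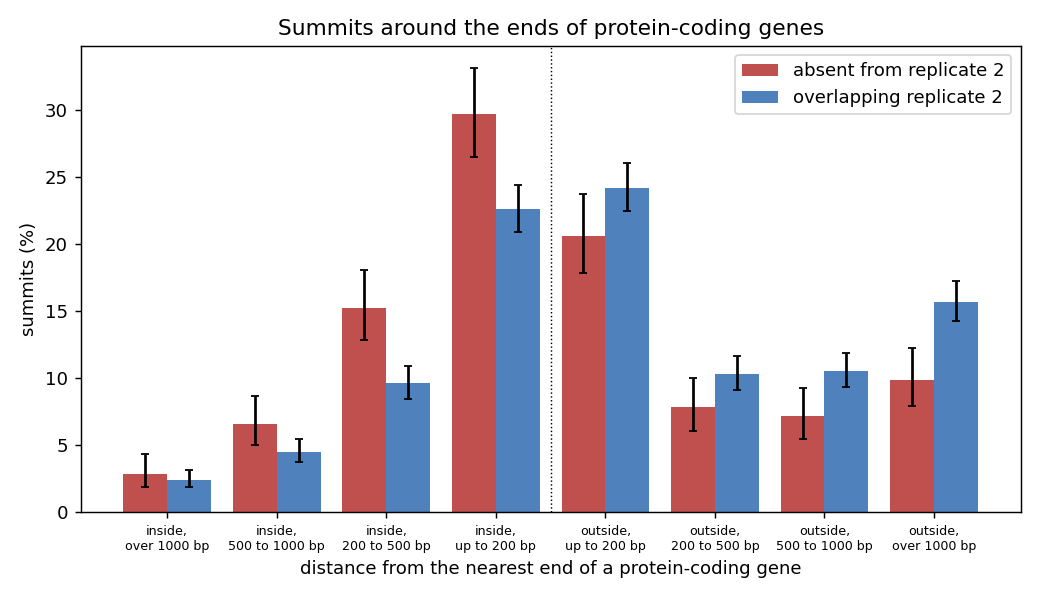
Percentage of summits (vertical axis) by distance from the nearest end of a protein-coding gene (horizontal axis; inside the gene left of the dotted line, outside right of it), for peaks absent from replicate 2 (red) and overlapping it (blue), with 95% Wilson intervals. Red exceeds blue in all 4 inside bins, for example 29.7% of absent and 22.6% of overlapping peaks up to 200 bp inside, and blue exceeds red in all 4 outside bins.

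**Figure D5:**
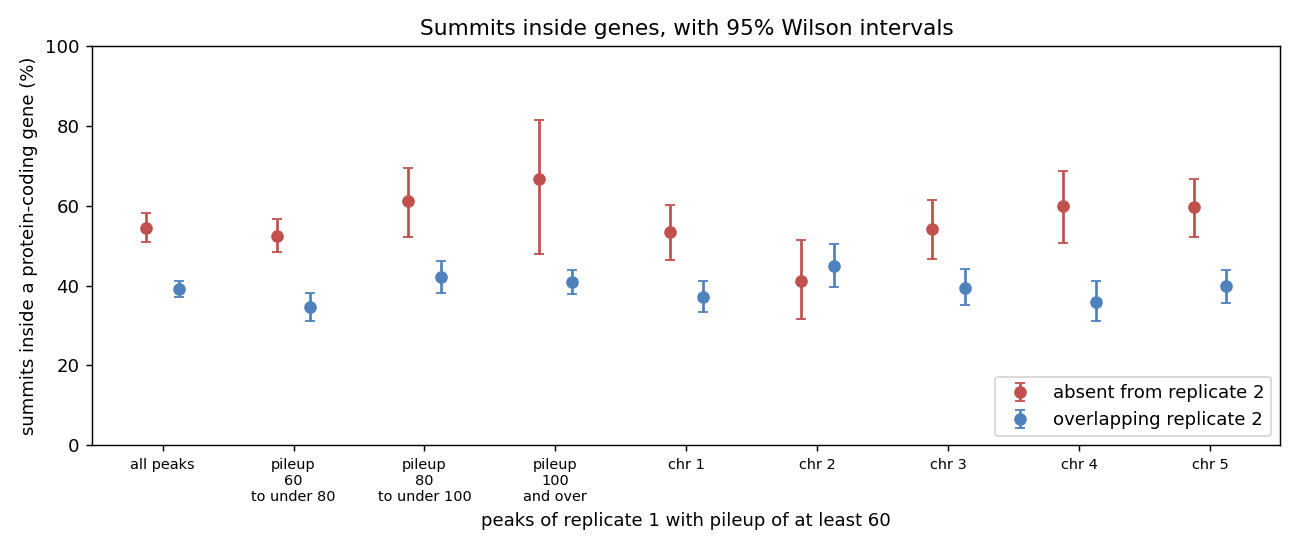
Percentage of summits inside a protein-coding gene (vertical axis) over all peaks of pileup 60 and more, within bands of pileup and by chromosome (horizontal axis), for peaks absent from replicate 2 (red) and overlapping it (blue), with 95% Wilson intervals. Red lies above blue at every point except chromosome 2, where 41.1% of absent and 44.9% of overlapping summits are inside.

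Background moved with this placement to a small degree. Over all pileups, its median inside genes was 9.23 in members and 9.23 in overlapping peaks, and outside genes 9.23 in members and 8.91 in overlapping peaks. Within bands of pileup, the medians inside genes were 9.23 in members and 9.23 in overlapping peaks from 60, and 9.82 and 9.23 from 80. From 100 they were 8.95 in 18 members and 9.23 in 388 overlapping peaks. Outside genes they were 9.23 and 8.72 from 60, 9.46 and 8.91 from 80, and 9.46 and 9.11 from 100. The part of background in the difference in placement was not tested.

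With a wider view of the gene end, taken as up to 1000 bp outside and 200 bp inside, the groups were closer. This window held 551 member summits (75.8%, 72.5 to 78.8) and 1628 overlapping ones (72.9%, 71.0 to 74.7). Deeper gene interior not near another gene's end held 14.3% of members and 11.4% of overlapping peaks. Intergenic sequence, over 1000 bp from any protein-coding gene and over 200 bp from a gene of another type, held 8.12% of members (6.34 to 10.3). It held 12.9% of overlapping peaks (11.6 to 14.3). Genes of other types, such as non-coding RNAs and pseudogenes, had a summit inside or within 200 bp in 69 members (9.49%) and 210 overlapping peaks (9.40%), most of them at lncRNA genes (6.60% of members and 6.67% of overlapping peaks). At tRNA genes lay 2 members (0.275%) and 9 overlapping peaks (0.403%), and at rRNA genes 0 members and 1 overlapping peak.

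The members were spread over the genome like the comparison peaks. They were 21.9% of the strong peaks on chromosome 2 and 26.9% on chromosome 3, with the other chromosomes between. Within 50 kb of the summit lay a median of 28 protein-coding genes in members and 28 in overlapping peaks, and a median of 6 other genes in both. The nearest replicate 2 peak lay at a median of 9819 bp (middle 50%, 3556 to 19166). The rule excludes overlap, and no such distance was computed for other positions, so whether this is far was not tested. A replicate 2 peak lay within 500 bp of 27 members (3.71%) and within 1000 bp of 54 (7.43%). The closest, 15 bp apart, was at AT3G46540.

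At comparison peaks with pileups of 60 to under 80 the replicate 2 partner was itself weak. Its pileup had a median of 23 (middle 50%, 20 to 27) and its fold a median of 3.16, while 15 was the lowest pileup of any nuclear replicate 2 peak. For peaks of 100 and over, the partner's median was 34 fragments and 4.48-fold. Replicate 2 pileups below the calling threshold are not listed in the peak tables, so a level in replicate 2 is not given for the members.

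By gene, the members reached an end of 793 of 27444 protein-coding genes (2.89%), and the overlapping peaks an end of 2335 (8.51%). For 723 of the 793 no replicate 2 summit met a gene end, and for 70 (8.83%) one did. Members were chosen for having no replicate 2 overlap, so this split follows in part from the rule. The share of all protein-coding genes met by replicate 2 was not counted, so the split is not a result about these genes. NRAMP4 (AT5G67330), a gene for a vacuolar metal transporter, was one of the 70, with a member of 112 fragments and 10.9-fold. The other members of highest pileup not yet named were at AT5G25240 (113 fragments, 12.05-fold), at SMO1-2 (AT4G22756), a sterol methyl oxidase gene (107 fragments, 8.47-fold), in the intergenic sequence nearest to AT1G08993 (108 fragments, 9.92-fold), and inside ECI1 (AT1G65520), an enoyl-CoA isomerase gene (106 fragments, 12.3-fold). For orientation, the overlapping peaks of highest pileup reached 289 fragments inside AT5G42050 and 256 at ABCI19 (AT1G03905), above the 202 of NF-YA1.

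Read against these 2.89% and 8.51%, the genes of seed filling stood out in the overlapping peaks and not in the members. No member met an end of the 9 seed storage protein genes, the 7 oil body genes or the 11 LEA and desiccation genes, while overlapping peaks of the same pileup range met 6, 4 and 6 of them. With lists this short, 0 is near the 2.89% of all genes and is not a result about the members. Of 18 maturation regulators members met 1 at a gene end and overlapping peaks 8. The 1 was LEC2 (AT1G28300), a B3 factor of embryo identity, with 66 fragments and 7.43-fold and no replicate 2 peak within 49671 bp. The lists were chosen with earlier results of these data known, and these counts are descriptions.

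The NF-Y subunits other than LEC1 and L1L had at least a base of a member between the ends of 4 of 23 genes, namely NF-YA1, NF-YA3, NF-YA4 and NF-YB8, and of an overlapping peak in 9 of 23. Over all protein-coding genes these shares were 2.38% for members and 6.64% for overlapping peaks. At a gene end, members met 2 of the 23 and overlapping peaks 7. NF-YA4 (AT2G34720) had 105 fragments and 11.8-fold in a peak that reached only 6.24% of the gene, and NF-YB8 (AT2G37060) had 63 fragments and 7.41-fold. NF-YA3, NF-YA4 and NF-YB8 had no overlapping peak of this pileup and no gene-end summit in replicate 2. In contrast NF-YA2 (AT3G05690), with 207 fragments and 24.1-fold, and NF-YA9 (AT3G20910), with 119 and 14.2-fold, had overlapping peaks alone.

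Photosynthesis genes were the list with the highest share of gene ends met by members, 8 of 52 genes named for light-harvesting or photosystem proteins (15.4%), against 11 of 52 (21.2%) met by overlapping peaks. They included PSBTN (AT3G21055), a photosystem II subunit gene, with 89 fragments and 10.4-fold, PSAH-1 (AT3G16140), a photosystem I subunit gene, with 80 and 9.10-fold, and LHCA4 (AT3G47470), an antenna protein gene, with 76 and 7.61-fold. Replicate 2 met an end of 2 of the 8, PSAH-1 and AT1G71500.

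For members, the other name-based lists were near or below the 2.89% over all genes. Overlapping peaks met 16.9% of the histone list and 17.0% of the heat shock list, above their 8.51% over all genes. They met 7.46% of the ribosomal protein list and 10% of the transcription factor list. Members met 2 of 65 genes with the word histone in their names (3.08%), and overlapping peaks 11 of 65. HTB9 (AT3G45980), a histone H2B gene, had 77 fragments and 9.80-fold, and HDA14 (AT4G33470) had 86 and 9.43-fold. Heat shock genes were met at 2 of 53 by members and at 9 by overlapping peaks, the 2 being HSP70 (AT3G12580, 72 fragments and 8.38-fold) and HSC70-1 (AT5G02500, 62 and 6.58-fold). Ribosomal protein genes were met at 2 of 67 by members and at 5 by overlapping peaks. Both of those met, PSRP2 (AT3G52150) and EMB3126 (AT3G63490), had folds of 8.38 and 7.69. Genes with the words transcription factor in their names were met at 3 of 110 by members and at 11 by overlapping peaks. The strongest of the 3 was ERF8 (AT1G53170), at 8.13-fold. A further member nearest to ERF8, outside the gene-end window, had 87 fragments and 11.1-fold. Factor genes without those words were left out, such as MYB77 (AT3G50060), whose end a member met with 94 fragments and 9.68-fold. The share of this list is therefore not that of all transcription factor genes.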

How the data were processed

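Each ChIP library had its own peak list, made with MACS 2.1.0.20150420 against the input of the same replicate at a q threshold of 0.05, per the file headers. The headers number the libraries 3 and 4; the sample labels, which call them replicates 1 and 2, were followed. Fragments were extended to 187 bp (replicate 1) or 149 bp (replicate 2), and 1 tag per position was kept. BWA 0.7.12 and the build TAIR10 are named in the submitters' processing notes. The deposited values, all the authors' own, are for each summit a pileup (a signal, in fragments), a fold enrichment (a ratio to local background), and a −log10 p-value and −log10 q-value.

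Lines of equal start and end were joined and represented by the summit of highest pileup. Background is (pileup + 1) / fold. Genes came from a RefSeq table of TAIR10.1, used for names and neighbourhood; it matched all 68 loci of the 5 lists given by locus, and 5 more lists were taken by words in its names. Summits met gene ends within 200 bp most often without a shift on each of the 5 chromosomes. Members and lists were chosen with earlier results of these data known. The rule for naming covered the members of highest fold (10), pileup (10), background (5) and length (5). It also covered 5 peaks on each side of the threshold, the 5 strongest overlapping peaks and up to 3 genes per list. Of the peaks at the threshold and the overlapping peaks, only some are named here. Names outside this rule (NF-YA2, NF-YA9, NF-YB8, AT1G71500, AT3G46540, AT1G04360 and other single loci) were chosen after their values were seen. Python 3.11.15, numpy 2.4.6, pandas 2.3.3 and scipy 1.17.1 (Wilson intervals at 95%, exact Poisson intervals) were used. Overlap assignment was tested on simulated data and was right for 1000 of 1000 pairs. The planned promoter motif counts need sequence and were not done here. No test was made, since the rule used the readout and each list is 1 library.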

Additional observations from a re-analysis of the deposited data

How the results depend on the processing

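The number of members depended on the thresholds: it was 727 as reported, 1424 with a pileup minimum of 50, 148 with 80, and 1453 when only replicate 2 peaks with −log10 q of at least 5 counted. The higher share of members inside protein-coding genes kept its direction under all 8 alternatives, which were chosen after the data were seen. It was 15.3 percentage points as reported, 20.9 at a pileup minimum of 80 and 10.99 with the stricter replicate 2 peaks. The share near a gene end, 2.92 points higher in members, was -3.05 points at a pileup minimum of 80, lower in members. The difference for other gene types was about 0 (0.0909 points) and changed sign at a minimum of 50 (-0.536), with no replicate 2 peak within 500 bp (-0.114), with 50% overlap of the shorter peak (-0.0121) and at pileups of 60 to under 80 (-0.589). The ratio of median backgrounds, 1.02, was 1.02 at a minimum of 50 and with 50% overlap, 1.04 at 80 and 1.04 at pileups of 60 to under 80. The ratio of median lengths, 0.865, was 0.826 at a minimum of 50, 0.886 at 80, 0.832 with the stricter replicate 2 peaks and 1.01 at pileups of 60 to under 80. No paired analysis was possible because the result comes from no test and the rule needs both replicates, which also leaves no value without either replicate.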
